A study of Mus musculus with 38 samples.

Results

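Liver gene expression was compared between C57BL/6J mice given haloperidol and mice given placebo, each for 30 days from slow-release pellets. Haloperidol is an antipsychotic that blocks dopamine D2 receptors and also binds sigma receptors. The arrays were chosen by their titles, as the liver arrays labelled drug (9 mice) and those labelled placebo (9 mice), which makes 18 of the 38 arrays of the series, and the other 20 hold whole brain. The labels give the strain, the treatment and the tissue and no dose, age or sex. Both groups shared the strain and the snap-frozen, pulverised tissue, and the controls carried a pellet as well. Each array is taken as the liver of 1 mouse, as the design text counts them, and the p-values measure the spread between these samples.

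The liver clears haloperidol. Reduction of its ketone by carbonyl reductases, glucuronidation by UDP-glucuronosyltransferases and oxidation by cytochrome P450 enzymes are its known routes, and many drugs induce such enzymes through the nuclear receptors PXR (Nr1i2) and CAR. Dopamine also restrains prolactin release from the pituitary, so D2 blockers act on hormones to which the liver responds, among them those that set the sex-biased expression of liver genes. Hepatocytes make up most of the tissue and also run the urea cycle, gluconeogenesis, lipid and bile acid synthesis and the secretion of plasma proteins, whereas Kupffer cells, the resident macrophages, are a minority.

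Levels are log2 values as the authors deposited them, normalized between arrays, and a difference is the haloperidol mean minus the placebo mean on that scale, so that 1 unit is 2-fold. Probes that GEO's annotation pairs with a single gene symbol covered 18820 genes, and where a gene had several such probes the one with the highest mean was used. The third of genes with the lowest liver mean, below 3.92, was left out, and 12547 genes were tested with limma, two-sided, with Benjamini-Hochberg adjustment over all of them. Liver markers were high on every array. Alb, the albumin gene, lay between 13.13 and 13.23 (median 13.19) in placebo livers and between 13.15 and 13.27 (median 13.22) in haloperidol livers. The urea cycle enzyme gene Cps1 lay between 12.52 and 12.74 with placebo and between 12.45 and 12.72 with haloperidol, and the apolipoprotein gene Apoa1 between 12.92 and 13.00 and between 12.89 and 13.09. Arrays of a group correlated with each other at 0.964 to 0.988 across probes, and none were identical. The median of all probes was 4.89 ± 0.090 (SD, n = 9) with haloperidol and 4.80 ± 0.082 with placebo (exact permutation test, two-sided, p = 0.0490, 0.122 after adjustment over 5 array-wide measures).

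No single liver gene passed the threshold. At an adjusted p under 0.05, 0 of 12547 genes (0%) were called, the smallest limma adjusted p being 0.251. Before adjustment, 468 genes (3.73% of those tested) were higher and 848 (6.76%) lower with haloperidol at p under 0.05. An exact two-sided Wilcoxon rank sum test called 0 after adjustment, and 349 higher and 761 lower before it. A limma fit that took its spread from all 38 arrays, brain included, called 40 genes (21 higher, 19 lower). Genes of unadjusted p under 0.05 in the limma fit of the liver arrays are called nominally higher or nominally lower in what follows, and none of them passed after adjustment. The same split was 150 higher and 2226 lower when each array's median was subtracted, a scaling that moved the median of all tested genes from -0.02 to -0.11. It was 721 higher and 703 lower, with no excess of lower genes, when the liver arrays were quantile-normalized again. Every direction given here is relative to the deposited normalization, and so is the excess of lower genes.

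The differences were small and the arrays limited them tightly. The median absolute difference was 0.09 log2 units, with a median standard error of 0.10. The 95% confidence interval lay inside a 1.5-fold change in either direction for 11734 genes (93.5%) and inside a 2-fold change for 12453 (99.3%). Group means differed by over 1.5-fold for 51 genes, 19 higher and 32 lower, and by over 2-fold for 7. No gene (0%) had all haloperidol arrays above all placebo arrays, and 1 gene (0.00797%), Nudt5, had all of them below.

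Lists of genes were then read by function. The lists and their members were chosen with earlier results of these data known, so their counts are a description. The 46 lists hold 1330 genes, of which 1074 were tested in at least 1 list, and each is described by its counts of nominally higher and lower members and by its median, to be set beside 3.73%, 6.76% and a median of -0.02 for all genes tested. Of all 12547 genes tested, 7203 lay below 0 and 5344 above. Counts of list members below or above 0 are to be set beside these. Members of a list are not taken as independent. The lowest medians belonged to heat shock genes (-0.25), Kupffer cell and macrophage genes (-0.23), conjugating enzymes (-0.17) and cell cycle genes (-0.16). The highest median was that of genes with female-biased liver expression (0.23). Under either of these scalings 11 of the 46 list medians changed sign, none of them farther than 0.0457 from 0 in the deposited values. A count of 3 or fewer in a list moved by up to 5 when single arrays were left out. Counts over all genes moved too. Nominally lower genes, 848 with all arrays, ran from 639 without haloperidol 3B to 1225 without haloperidol 4L. They were 656 without the 4 arrays whose title tag has the digit 2.

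**Figure D1:**
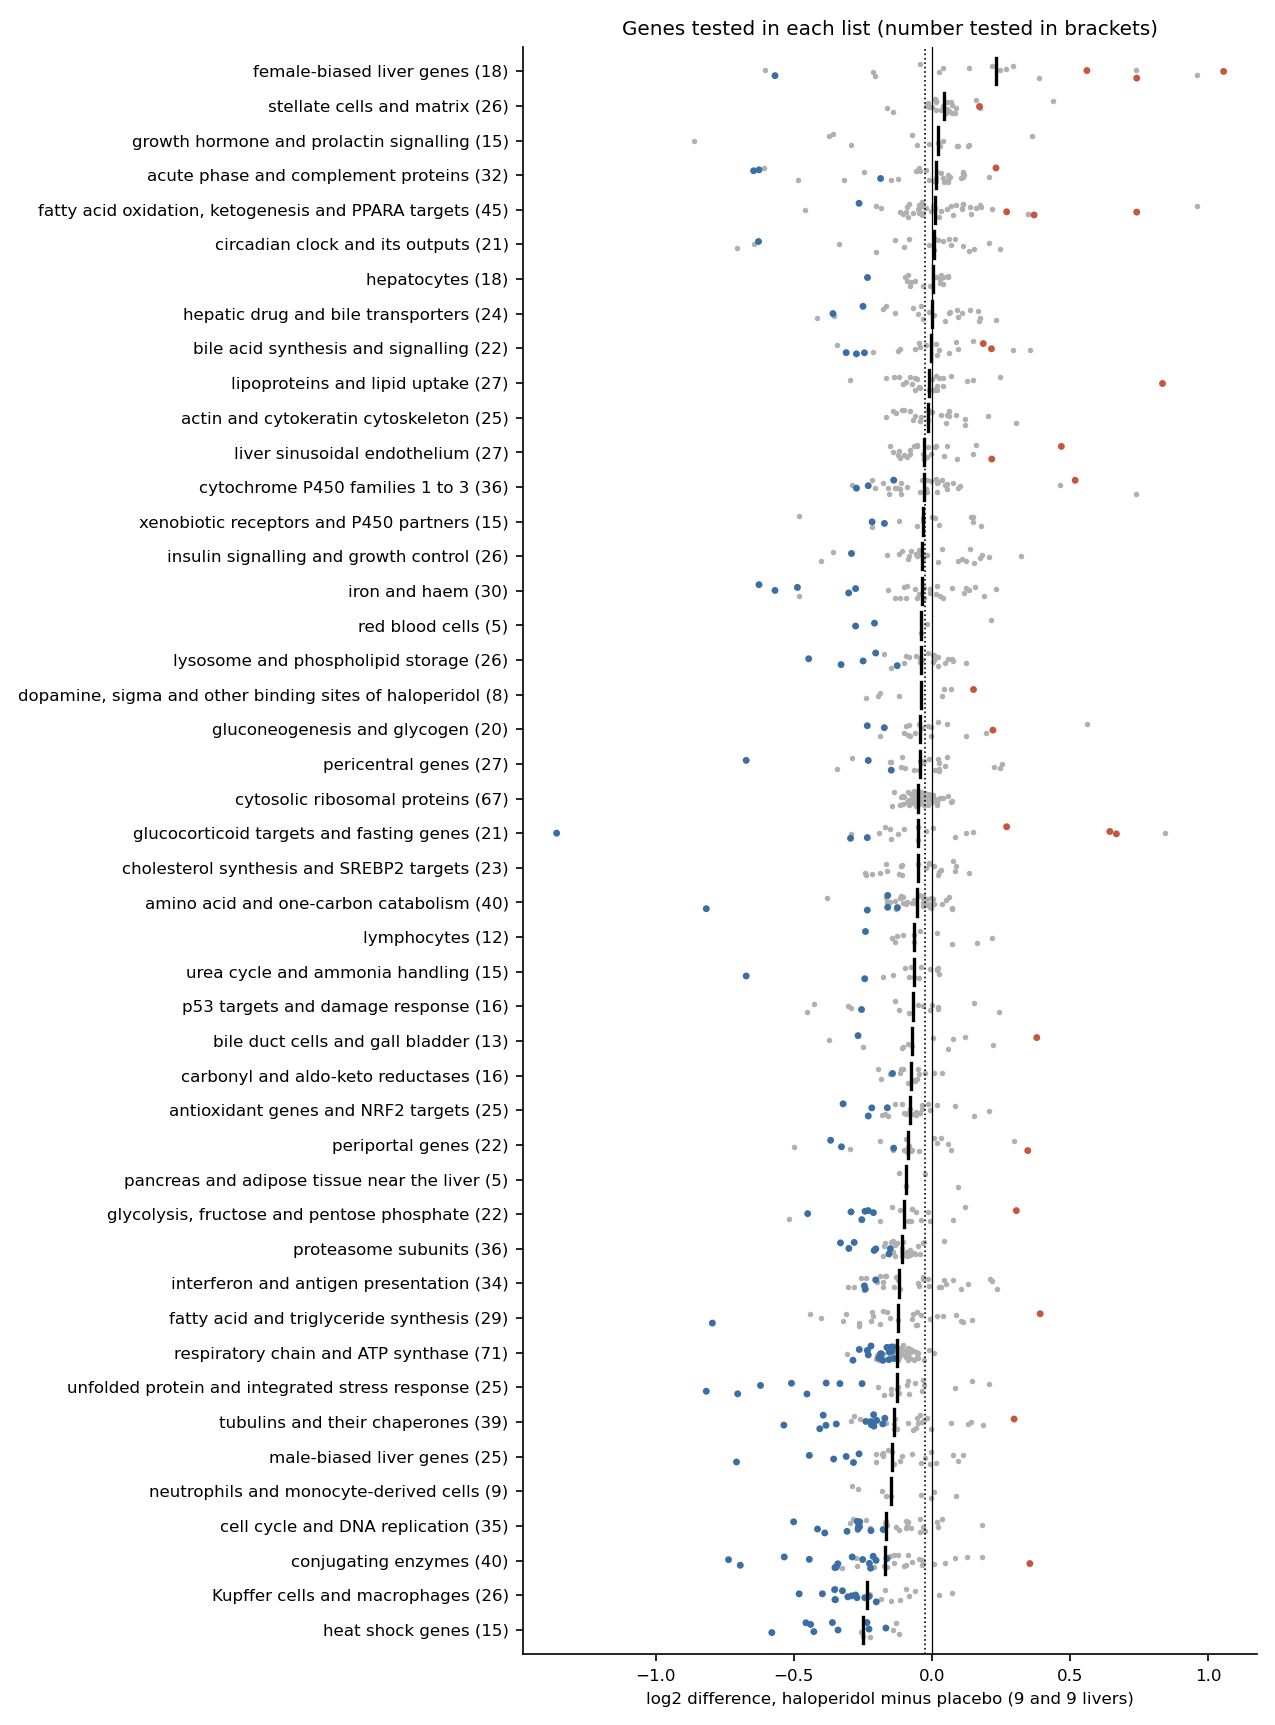
Log2 difference between haloperidol and placebo livers (x axis) for each tested gene of the 46 lists (rows, ordered by median, with the number tested in brackets). Red points are nominally higher and blue points nominally lower genes, grey points are all others, black bars are list medians, and the dotted line is the median of all genes tested; the female-biased list has its median at 0.23 and heat shock genes at -0.25.

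Genes of smallest p were led by Rhbg, which encodes an ammonium transporter of the hepatocytes around the central vein. Its level was 7.40 to 7.88 (median 7.65) in placebo livers and 6.60 to 7.66 (median 6.96) in haloperidol livers. A single haloperidol array, 1B at 7.66, lay among the placebo arrays, and the other 8 haloperidol values were 7.38 or lower. The difference was -0.67 (SE 0.124, 95% interval -0.93 to -0.41, limma adjusted p = 0.251). Without haloperidol 1B, Rhbg was the 1 gene that passed, at -0.76 with a limma adjusted p of 0.00727. That array held the highest haloperidol value of Rhbg, so leaving it out had to widen the difference. With any other single array left out, 0 genes passed.

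Nudt5 encodes a nucleotide sugar hydrolase that acts on ADP-ribose. Its level ran from 8.02 to 8.29 (median 8.19) with placebo and from 7.74 to 7.98 (median 7.89) with haloperidol, a difference of -0.29 (SE 0.0604, limma adjusted p = 0.251). The groups did not overlap, and the highest haloperidol value lay just under the lowest placebo value. Nans, the sialic acid synthase gene, was at 7.17 to 7.66 (median 7.30) with placebo and 6.61 to 7.19 (median 6.85) with haloperidol, a difference of -0.46 (SE 0.0952). Its groups overlapped only at their edges, and all 9 haloperidol values lay below the placebo mean.

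The tubulin genes Tubb4b and Tuba1b and the tubulin glutamylase subunit gene Ttll1 stood in the same group. Tubb4b was at 9.41 to 9.78 (median 9.61) with placebo and 8.82 to 9.44 (median 9.25) with haloperidol, and Tuba1b at 10.15 to 10.48 (median 10.26) and 9.64 to 10.18 (median 10.05). For both genes each haloperidol value was below the placebo mean, and the ranges overlapped by a few hundredths of a log2 unit. The differences were -0.39 (SE 0.0815) for Tubb4b, -0.38 (SE 0.0824) for Tuba1b and -0.54 (SE 0.117) for Ttll1. Tubulin genes are near copies of each other, so how probes divide the signal among them is uncertain.

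Bmp7, a gene of the bone morphogenetic protein family, was at -0.49, and Mettl1, a tRNA methyltransferase gene, at -0.47. The general transcription factor gene Gtf2e1 differed by -0.33 and the ATP-binding cassette gene Abcf2 by -0.31. In all 4 genes the 9 haloperidol values lay below the placebo mean.

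Among higher genes, Slc23a2, which encodes a vitamin C transporter, was at 7.51 to 7.88 (median 7.68) with placebo and 7.71 to 8.46 (median 8.05) with haloperidol. All haloperidol values were above the placebo mean, and the lowest of them, in array 4N, lay among the placebo values. The difference was 0.40 (SE 0.0833, 95% interval 0.22 to 0.57, limma adjusted p = 0.251).

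Flcn encodes folliculin, a regulator of nutrient signalling at the lysosome, and was at 7.21 to 8.11 (median 7.54) with placebo and 7.71 to 8.24 (median 8.14) with haloperidol. Its difference was 0.44 (SE 0.106). The chromatin remodeller gene Chd6 differed by 0.49 (SE 0.123) and the centrosomal protein gene Cep70 by 0.57 (SE 0.137). Both overlapped between groups, with the highest placebo values of 7.16 and 5.26 above the lowest haloperidol values of 6.95 and 4.93.

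Positive differences were also measured for Mapk1ip1 (0.38), the zinc finger genes Zfp292 (0.38) and Zfp866 (0.34), the mitochondrial metaxin gene Mtx3 (0.38), the ubiquitin ligase adaptor gene Dcaf6 (0.37) and the predicted gene Gm3893 (0.58). All 9 haloperidol values of these 6 genes lay above the placebo mean. The genes of smallest p were chosen from these same values, which favours genes with all values on the same side. Counts of arrays above or below the placebo mean are therefore a description, here, for the genes before and for list members named for small p. The share of all genes tested with such a count is not given here.

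**Figure D2:**
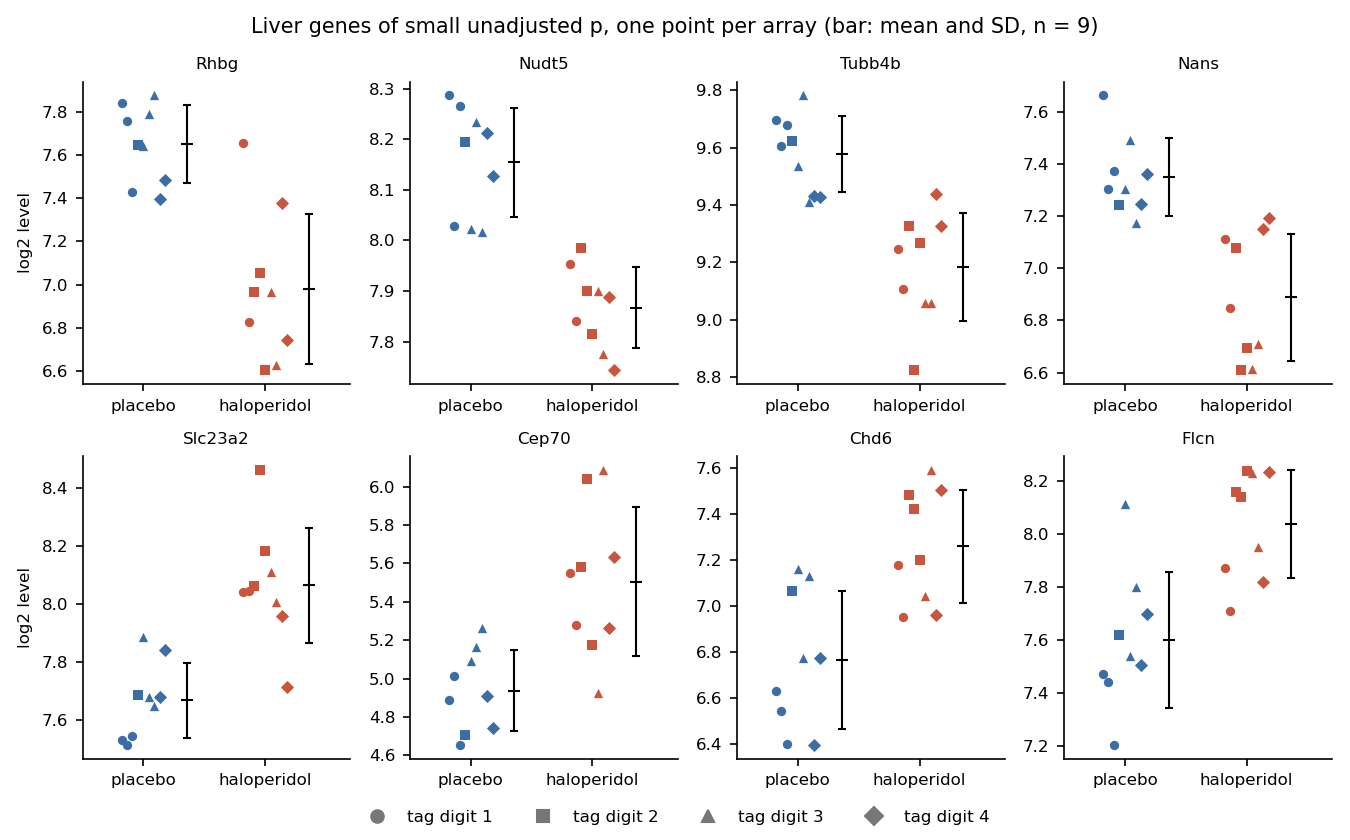
Log2 level (y axis) of 8 of the 20 genes of smallest p on each liver array, placebo in blue and haloperidol in red, with the mean and SD of 9 arrays as a bar; marker shape is the digit of the sample tag. Nudt5 separates the groups at 8.02 against 7.98, while Rhbg has haloperidol 1B at 7.66 among the placebo arrays.

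Of these 20 genes, 19 were also tested in brain, where 23% of 10869 genes differed between the tissues' haloperidol effects (limma, adjusted p under 0.05). All 19 were among those, 17 with array medians subtracted and 18 without the brain array haloperidol 4T; the genes were chosen for their liver values, so this count is a description. Tubb4b, for example, had a liver effect of -0.39 and a brain effect of 0.45.

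Genes of protein folding are described next. Heat shock genes encode chaperones that the transcription factor HSF1 induces through heat shock elements in their promoters, and chaperones of the endoplasmic reticulum are induced through ER stress elements, which the factors ATF6 and XBP1 bind. Both kinds of element are written out here because members of both lists carried them. The heat shock element was searched as TTCNNGAANNTTC and as its reverse complement, GAANNTTCNNGAA. The ER stress element was searched as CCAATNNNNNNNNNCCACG and, for the opposite strand, CGTGGNNNNNNNNNATTGG. The stretches below come from the RefSeq promoter windows (build GRCm38.p6, of 1 length around the annotated start), are cut upstream of the start, read 5′ to 3′ on the strand of the gene, and have the matched letters in capitals.
Hspe1, chr1:55087999-55088136, plus strand: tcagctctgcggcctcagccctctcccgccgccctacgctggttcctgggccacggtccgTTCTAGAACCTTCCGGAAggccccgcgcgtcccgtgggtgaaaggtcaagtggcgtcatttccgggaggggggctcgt
Hspa5, chr2:34771965-34772089, plus strand: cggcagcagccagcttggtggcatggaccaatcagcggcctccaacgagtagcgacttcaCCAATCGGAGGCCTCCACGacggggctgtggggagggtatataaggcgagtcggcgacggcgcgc
Creld2, chr15:88819460-88819598, plus strand: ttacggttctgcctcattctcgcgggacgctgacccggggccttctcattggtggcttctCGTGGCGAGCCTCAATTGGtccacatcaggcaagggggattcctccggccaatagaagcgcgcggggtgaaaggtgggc
Hsp90b1, chr10:86705473-86705694, minus strand: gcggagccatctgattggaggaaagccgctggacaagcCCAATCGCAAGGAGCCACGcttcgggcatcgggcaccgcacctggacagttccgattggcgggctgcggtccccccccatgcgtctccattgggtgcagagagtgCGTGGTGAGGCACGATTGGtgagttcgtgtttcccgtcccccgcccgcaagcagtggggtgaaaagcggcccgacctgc

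The heat shock element was found in 198 of 32851 promoter windows (0.603%) and in 4 of the 13 heat shock genes with a window, Chordc1, Hspd1, Hspe1 and Hsph1. In the Hspe1 stretch both patterns overlap, and Hspd1 shares this promoter, which runs in both directions. Among the genes tested in liver with a window, 56 of 9957 (0.562%) held it. The ER stress element was found in 39 windows (0.119%) and in 7 of 22 genes of the unfolded protein list with a window, Calr, Canx, Creld2, Dnajc3, Hsp90b1, Hspa5 and Pdia6. Among the genes tested in liver 17 (0.171%) held it, and in the tubulin and proteasome lists 0 of 30 genes each held either element. In Hspa5 it stands in its forward form, in Creld2 in its opposite-strand form, and in Hsp90b1 in both. A match is a description of these letters and not a site measured here.

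All 15 heat shock genes tested had values below 0, with a median of -0.25, and 9 were nominally lower. Hsp90aa1, the inducible form of the HSP90 chaperone, was at 9.89 to 10.96 (median 10.66) with placebo and 9.20 to 10.78 (median 10.29) with haloperidol. Hsph1, an HSP110 family chaperone, was at 8.75 to 9.89 (median 9.65) and 8.12 to 9.96 (median 8.95). For both, 8 of 9 haloperidol values lay below the placebo mean and the ranges overlapped widely. Differences were -0.44 (SE 0.179, limma adjusted p = 0.421) and -0.46 (SE 0.200, limma adjusted p = 0.443).

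Further nominally lower members were the small heat shock protein gene Hspb1 (-0.58), its partner co-chaperone Bag3 (-0.43), Chordc1 (-0.36), the HSP70-HSP90 adaptor gene Stip1 (-0.34), Fkbp4 (-0.23), the HSP90 activator gene Ahsa1 (-0.17) and the mitochondrial chaperonin gene Hspe1 (-0.23). Hspd1, which encodes the partner of Hspe1 in the mitochondrial chaperonin, was at -0.12, and the constitutive HSP70 gene Hspa8 at -0.13. The mean level of the list ran from 9.36 to 9.92 over placebo arrays and from 8.94 to 9.95 over haloperidol arrays, with 8 of 9 below the placebo mean. Single arrays moved the count of nominally lower genes: it was 4 without placebo 1T or haloperidol 2T, and 5 without placebo 1N, placebo 3T or haloperidol 3R.

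In the unfolded protein and integrated stress response list, 8 of 25 members were nominally lower and 0 higher, with a median of -0.13. Hspa5, the main HSP70 chaperone of the endoplasmic reticulum, lay between 11.48 and 12.11 (median 11.78) with placebo and between 10.99 and 11.90 (median 11.46) with haloperidol. All but 1 haloperidol value lay below the placebo mean, and the difference was -0.33 (SE 0.116, limma adjusted p = 0.389). Other nominally lower chaperone or secretory pathway genes were Manf (-0.45), Hyou1 (-0.38), Sdf2l1 (-0.62), Creld2 (-0.70), Dnajb9 (-0.51) and Dnajb11 (-0.25).

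Asns, the asparagine synthetase gene and a target of the factor ATF4, was at 4.77 to 7.59 (median 5.64) with placebo and 4.59 to 5.42 (median 5.10) with haloperidol, a difference of -0.82 (SE 0.261). Every haloperidol value was below the placebo mean, and the placebo arrays spread far more. Other genes of the ATF4 arm were at smaller values of either sign, with Atf4 itself at -0.04, Trib3 at 0.21, Chac1 at -0.12 and Atf3 at -0.03. The splicing target Xbp1 was at -0.09. Of the genes that carried the ER stress element, Hsp90b1 was at -0.13, Pdia6 at -0.20, Dnajc3 at -0.17, Calr at -0.08 and Canx at -0.06. Without the 4 arrays whose tag has the digit 2, 3 members of the list were nominally lower, against 8 of 15 in the heat shock list.

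Cytosolic folding of tubulin and actin needs the chaperonin CCT. Of 39 tested genes for tubulins, their folding factors and microtubule enzymes, 13 were nominally lower and 1, the gamma-tubulin complex gene Tubgcp3 (0.30), nominally higher, with a median of -0.14. Beside the tubulin genes already named, Tubb6 was at -0.35, Tuba8 at -0.41, Tuba4a at -0.22 and Tubb5 at -0.18, and the CCT subunit genes Cct7, Cct5 and Cct3 at -0.22, -0.21 and -0.17. All other CCT subunits tested were below 0 too, from Tcp1 at -0.17 to Cct8 at -0.05. By contrast, 0 of 25 actin and cytokeratin genes were nominally higher or lower, and their median was -0.01, with Actb at -0.04 and the hepatocyte keratin genes Krt8 and Krt18 at -0.14 and -0.01.

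Proteasome subunits showed small values of 1 sign. Of 36 genes tested, 35 were below 0, 7 were nominally lower and the median was -0.11. The regulatory particle gene Psmd14 (-0.33) and the catalytic subunit genes Psmb5 (-0.30) and Psmb9 (-0.28) had the largest nominal differences. The count was 4 without placebo 1T or haloperidol 4N, 11 without haloperidol 4L and 3 without the arrays of tag digit 2. Over all genes tested, nominally lower genes in these fits numbered 646, 774, 1225 and 656 in that order, against 848 with all arrays.

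Genes of the mitochondrial respiratory chain and the ATP synthase had the same pattern. Of 71 tested, 70 lay below 0, 16 were nominally lower and 0 higher, with a median of -0.12. The complex I genes Ndufs8 (-0.26), Ndufa2 (-0.22) and Ndufb5 (-0.18) and the ATP synthase gene Atp5e (-0.23) were the members of smallest p. Ndufs1, Sdha and Cox4i1, subunits of complexes I, II and IV, were at -0.15, -0.05 and -0.11, each with a 95% interval that includes 0. The list mean ran from 10.11 to 10.34 over placebo arrays and 10.01 to 10.28 over haloperidol arrays. The count of nominally lower genes was 10 without placebo 1T, 8 without placebo 3N, 26 without haloperidol 4L and 5 without the arrays of tag digit 2. Over all genes tested, these fits gave 646, 653, 1225 and 656 nominally lower genes, against 848 with all arrays.

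Gene length went with these values. The 3134 genes of shortest genomic span (median 4.36 kb) were nominally higher in 2.71% and lower in 8.84%, and the 3134 of longest span (median 101 kb) in 6.13% and 3.86%. The median span was 7.08 kb for respiratory chain genes, 10.8 kb for proteasome genes and 10.4 kb for heat shock genes, and the part of gene span in their values was not tested. Ribosomal protein genes were shorter still, with a median span of 3.35 kb. Of 67 tested, 0 were nominally higher or lower, and their median was -0.05.

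Enzymes that clear drugs differed little in the P450 families. In cytochrome P450 families 1 to 3, 1 of 36 tested genes was nominally higher and 3 lower, with a median of -0.03. Cyp3a11, the main mouse enzyme induced through PXR, was at 11.67 to 12.12 (median 12.07) with placebo and 11.93 to 12.24 (median 11.98) with haloperidol. The groups overlapped widely. The difference was -0.02, and its 95% interval, -0.16 to 0.12, lies inside a 1.5-fold change. Cyp2d22, of the family that oxidises many antipsychotics, was at 0.02 with an interval of -0.12 to 0.17, and Cyp1a2, another enzyme of aromatic drugs, at -0.11 with an interval of -0.28 to 0.06.

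Cyp2b10, the usual target of CAR, varied among mice of both groups. It was at 5.93 to 8.05 (median 6.98) with placebo and 5.16 to 8.11 (median 6.50) with haloperidol. Its difference was -0.21, and the interval of -0.92 to 0.51 allows a difference of over 1.5-fold downwards. The nominally higher gene was Cyp2j9 (0.52), and the lower ones were Cyp2c70 (-0.27), Cyp2a5 (-0.23) and Cyp2f2 (-0.14). PXR itself (Nr1i2) was at 0.15 with an interval of -0.05 to 0.35.

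Carbonyl reductase 1, encoded by Cbr1, was at 8.54 to 8.83 (median 8.66) with placebo and 8.28 to 8.69 (median 8.62) with haloperidol. All 9 haloperidol values lay below the placebo mean, yet the medians were close and the difference was -0.14 (SE 0.069, limma adjusted p = 0.476). It was the 1 nominally lower gene among 16 carbonyl and aldo-keto reductases tested, of which 14 lay below 0.

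Of 40 conjugating enzymes tested, 14 were nominally lower and 1 higher, and 34 lay below 0, with a median of -0.17. Gstm2, a glutathione S-transferase gene, was at 8.49 to 8.99 (median 8.65) with placebo and 7.98 to 8.65 (median 8.41) with haloperidol. Nnmt, which methylates nicotinamide, was at 9.22 to 10.58 (median 9.82) and 8.66 to 10.20 (median 9.07). Haloperidol values lay below the placebo mean in 9 of 9 livers for Gstm2 and in 8 for Nnmt, and the ranges overlapped for both. Their differences were -0.35 (SE 0.0901, limma adjusted p = 0.334) and -0.69 (SE 0.208, limma adjusted p = 0.367).

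The nominally lower conjugating enzymes included 5 mu-class glutathione S-transferases (Gstm2, Gstm4 at -0.34, Gstm3 at -0.23, Gstm6 at -0.22 and Gstm7 at -0.21) and 4 glucuronosyltransferases of the Ugt2b cluster. These were Ugt2b37 (-0.74), Ugt2b38 (-0.44), Ugt2b35 (-0.35) and Ugt2b1 (-0.29, interval -0.49 to -0.09). Members of each cluster are similar in sequence, so their probes may share signal and the genes do not count as independent. Ugdh, which makes the glucuronate donor, was at -0.20, and Papss1, which makes the sulphate donor, at -0.25. The remaining nominally lower genes were Sult5a1 (-0.53) and Gstk1 (-0.16). Gstm1 was at -0.04, Ugt2b36 at -0.12, and Gstt2 at 0.36 was the nominally higher gene. Without the arrays of tag digit 2, 8 were nominally lower.

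**Figure D3:**
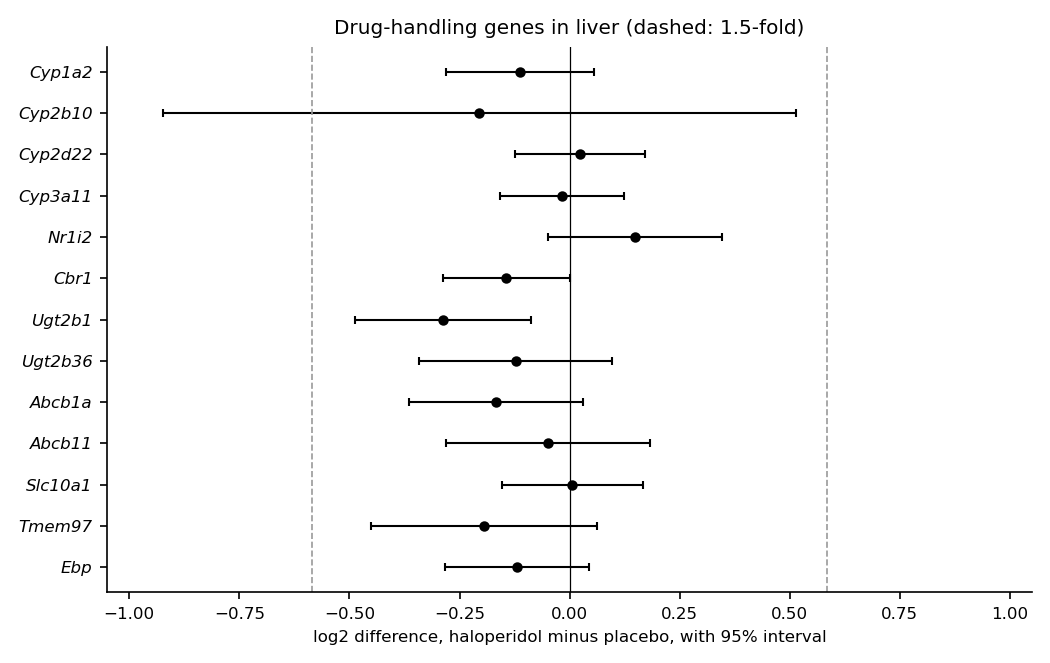
Log2 difference between haloperidol and placebo livers (x axis) with its 95% interval (bars) for 13 drug-handling genes, with dashed lines at a 1.5-fold change in each direction. Cyp3a11 and Cyp2d22 sit at -0.02 and 0.02 with narrow intervals, Cyp2b10 has the widest, and Ugt2b1 lies at -0.29.

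Of 24 hepatic drug and bile transporter genes, 2 were nominally lower, Abcb1b (-0.36) and Abcg2 (-0.25), and 12 lay above and 12 below 0. Levels of Abcb1b were low, with means of 4.96 with placebo and 4.60 with haloperidol. Abcb1a, which encodes P-glycoprotein, was at -0.17, the bile salt exporter gene Abcb11 at -0.05 and the bile acid uptake gene Slc10a1 at 0.01. Genes of haloperidol's binding sites had 8 tested members with a median of -0.04, and the histamine receptor gene Hrh1 (0.15) was nominally higher. The sigma-2 receptor gene Tmem97 was at -0.19 (interval -0.45 to 0.06) and the sterol isomerase gene Ebp at -0.12 (interval -0.28 to 0.04). Dopamine receptor genes Drd1 and Drd4 were near the dim limit, at placebo means of 4.56 and 4.47, and differed by 0.04 each.

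Cationic amphiphilic drugs, haloperidol among them, can load lysosomes with phospholipid by inhibiting the phospholipase PLA2G15. Its gene Pla2g15 was at 7.36 to 8.05 (median 7.71) with placebo and 7.10 to 7.72 (median 7.32) with haloperidol, with 8 of 9 below the placebo mean and a difference of -0.33 (SE 0.0939, limma adjusted p = 0.362). Of 26 lysosome genes tested, 5 were nominally lower and 0 higher, with a median of -0.04: Gla (-0.45), Pla2g15, the acid sphingomyelinase gene Smpd1 (-0.25), Atp6v0d1 (-0.20) and the cathepsin gene Ctsd (-0.13). The count was 3 without placebo 1T, placebo 3N, haloperidol 2T, haloperidol 3B or haloperidol 4N. Lamp2 and the cholesterol exporter gene Npc1 were at -0.04 and 0.06, and the lysosomal master regulator Tfeb at 0.01.

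Nitrogen metabolism showed its clearest value in ammonium transport. The urea cycle and ammonia list held 15 tested genes, 2 of them nominally lower, Rhbg (-0.67) and the mitochondrial ornithine carrier gene Slc25a15 (-0.24), with a median of -0.065. Slc25a15 was at 10.61 to 11.03 (median 10.70) with placebo and 10.28 to 10.67 (median 10.49) with haloperidol, and all haloperidol values lay below the placebo mean. The enzymes of the cycle were at -0.07 (Cps1), -0.18 (Otc), -0.14 (Asl) and -0.08 (Arg1), and glutamine synthetase (Glul) at -0.06, each with an unadjusted p above 0.05. The mean of the list was 10.77 to 10.90 over placebo arrays and 10.62 to 10.76 over haloperidol arrays. The groups did not overlap, but their edges, 10.77 and 10.76, lay close together. Rhbg, which led the genes of smallest p, is part of this mean, and the mean without it was not tested. How many other lists had means without overlap is not given here, so the separation is a description. Rhbg had the largest difference of the 15 genes.

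The amino acid and one-carbon list held 5 nominally lower genes of 40 tested and 0 higher, with a median of -0.055. The tyrosine aminotransferase gene Tat was at 12.45 to 12.83 (median 12.69) with placebo and 12.14 to 12.60 (median 12.47) with haloperidol, with all haloperidol values below the placebo mean and a difference of -0.23 (SE 0.0755, limma adjusted p = 0.373). Asns has been given above, Mccc1 (-0.16) and Hgd (-0.12) belong to leucine and tyrosine breakdown, and Cth (-0.16) to cysteine synthesis. The methionine adenosyltransferase gene Mat1a was at 0.04. The count was 3 when any of 10 single arrays was left out (placebo 1L, 1N, 1T and 3L, haloperidol 2L, 2N, 2T, 3B, 4L and 4N).

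For glucose metabolism, the gluconeogenic genes Pck1 and G6pc were at -0.10 and -0.05, with intervals of -0.38 to 0.18 and -0.30 to 0.20. Of 22 genes of glycolysis, fructose and pentose phosphate metabolism, 6 were nominally lower and 1 higher, with a median of -0.10. Taldo1, Tkt and Pgd, enzymes of the pentose phosphate pathway, were at -0.23, -0.21 and -0.24. The fructose transporter gene Slc2a5 was at -0.45, the glycolytic genes Pgk1 and Pgam1 at -0.29 and -0.25, and the glucokinase regulator gene Gckr at 0.31. The pyruvate kinase gene Pklr and the fructokinase gene Khk were at -0.07 and -0.14 and did not reach nominal p. Glycogen phosphorylase (Pygl) was at -0.17 and the phosphorylase kinase subunit gene Phka2 at 0.22, both nominal.

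Lipid genes held few nominal differences. Thrsp, a lipogenic gene that follows carbohydrate intake and thyroid hormone, was at 10.04 to 12.22 (median 11.32) with placebo and 9.20 to 11.06 (median 10.46) with haloperidol, a difference of -0.79 (SE 0.312, limma adjusted p = 0.409). All 9 haloperidol values lay below the placebo mean. The carbohydrate-sensing factor gene Mlxipl, in contrast, was at 9.97 to 11.06 (median 10.71) with placebo and 10.44 to 11.36 (median 11.05) with haloperidol, a difference of 0.39 (SE 0.165). Fatty acid synthase (Fasn, -0.26), Srebf1 (-0.27) and Elovl6 (-0.44) did not reach nominal p, and the desaturase gene Scd1 was at -0.05. Over the 29 synthesis genes tested the median was -0.12, with 1 nominally higher and 1 lower. Without the 4 arrays of tag digit 2 the median was 0.0024, and 0 members were nominally higher or lower. The difference of list means was -0.02, -0.48, 0.14 and -0.15 within digits 1 to 4, and that of Thrsp -0.09, -1.84, 0.07 and -1.24, where digit 2 holds a single placebo array.

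Cholesterol synthesis genes are a group that many antipsychotics raise in cultured cells. Here 0 of 23 tested genes were nominally higher or lower, with a median of -0.05, and this median took values from -0.11 to 0.05 as single arrays were left out and was 0.10 without the arrays of tag digit 2. Sqle, the squalene epoxidase gene, had an interval of -0.54 to 0.44. Arrays varied much in this list, its mean running from 9.05 to 9.74 with placebo and from 8.65 to 9.61 with haloperidol.

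Fatty acid oxidation, ketogenesis and PPARA target genes had a median of 0.01 over 45 tested, with 3 nominally higher and 1 lower (Cyp4a12b, -0.26). Without haloperidol 4N, 5 were nominally higher. Fgf21, which encodes a hepatic fasting hormone, was at 3.82 to 4.36 (median 4.27) with placebo and 4.26 to 5.02 (median 4.59) with haloperidol. All haloperidol values were above the placebo mean and the difference was 0.37 (SE 0.0955, limma adjusted p = 0.334), but these levels lie close to the dim limit. Acot3, a peroxisomal thioesterase gene, was at 0.74 and the lipase inhibitor gene Angptl4 at 0.27. Ppara and Cpt1a were at 0.18 and 0.09 and Cyp4a14 at 0.96 with an interval of -0.06 to 1.98. Angptl8, a feeding-induced inhibitor of lipoprotein lipase, was the 1 nominally higher gene of 27 lipoprotein genes, at 7.27 to 10.11 (median 7.82) with placebo and 7.84 to 9.73 (median 9.07) with haloperidol and a difference of 0.84. Apob was at 0.02.

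Bile acid genes held 2 nominally higher and 3 lower of 22 tested, with 11 above and 11 below 0. Cyp7a1, the rate-limiting enzyme of bile acid synthesis, was at 9.24 to 10.90 (median 10.34) with placebo and 8.25 to 11.02 (median 10.10) with haloperidol, a difference of -0.34 with a wide interval of -0.995 to 0.31. Cyp7b1 of the alternative pathway was at -0.31, Cyp2c70, which makes muricholic acids, at -0.27, and the conjugating enzyme gene Baat at -0.24, all nominally lower. Nr5a2, a nuclear receptor that drives Cyp7a1 and Cyp8b1, was at 9.10 to 9.47 (median 9.27) with placebo and 9.32 to 9.61 (median 9.47) with haloperidol, with all haloperidol values above the placebo mean (0.19, SE 0.067). The FGF co-receptor gene Klb (0.22) was the other nominally higher member. Cyp8b1 was at -0.02.

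Sex-biased liver genes were read because prolactin and growth hormone act on them. Of 25 genes with male-biased expression 6 were nominally lower and 0 higher, with a median of -0.14. Of 18 with female-biased expression 3 were nominally higher and 1 lower, with a median of 0.23, and 13 lay above and 5 below 0. Beside the nominally lower gene, those below 0 were Cyp17a1 (-0.60), Cyp39a1 (-0.21), Cyp2b10 (-0.21) and Cyp3a44 (-0.04). Another 9 female-biased genes with a probe had been left out as dim. Within tag digits 1 to 4, female-biased list means differed by 0.29, 0.32, 0.29 and -0.02, and male-biased ones by -0.17, 0.01, -0.26 and -0.06. Digit 2 holds a single placebo array. Abcd2, a peroxisomal transporter of very long chain fatty acids, was at 4.87 to 6.48 (median 5.64) with placebo and 4.51 to 7.69 (median 6.63) with haloperidol. Of the haloperidol values, 8 were above the placebo mean and 1, array 4N, was below all placebo arrays. The difference was 1.06 (SE 0.327, limma adjusted p = 0.367).

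The other nominally higher female-biased genes were the organic anion transporter gene Slc22a26 (0.56) and Acot3, and the lower one was Hamp2 (-0.57). Slc22a26 and Cyp2b9, at placebo means of 3.97 and 3.93, lay close to the dim limit, and Acot3 had a placebo mean of 4.84. Cyp2b9 was at 0.74, but a single array, haloperidol 2T at 7.68, set this value, since the other haloperidol arrays lay at 5.28 or below and their median was 4.37 against 3.94 with placebo. Without haloperidol 4N, 8 female-biased genes were nominally higher in place of 3. It was 5 without placebo 1T or haloperidol 3B.

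Male-biased members at nominal p were Capn8 (-0.71), Ugt2b38 (-0.44), Selenbp2 (-0.36), Cyp7b1 (-0.31), Nudt7 (-0.28) and Cyp4a12b (-0.26). Other known male markers did not reach nominal p. Mup20 was at -0.03 (interval -0.14 to 0.09), Slco1a1 at -0.04, Hsd3b5 at -0.12 and Elovl3 at -0.18. Hormone signalling genes had 15 members tested, of which 0 were nominally higher or lower. The growth hormone receptor gene Ghr was at -0.01, Igf1 at -0.07, and the hormone-induced genes Socs2 and Cish at 0.36 and -0.86 with wide intervals of -0.30 to 1.02 and -1.85 to 0.12. With the tag digit as a block, 2 genes of this list were nominally higher and 1 lower. Socs2, an anchor gene of the list, was then at 0.59 (limma adjusted p = 0.376, against 0.688 without the block). It was positive within all 4 digits (0.39, 1.11, 0.12 and 1.01), where digit 2 holds a single placebo array.

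**Figure D4:**
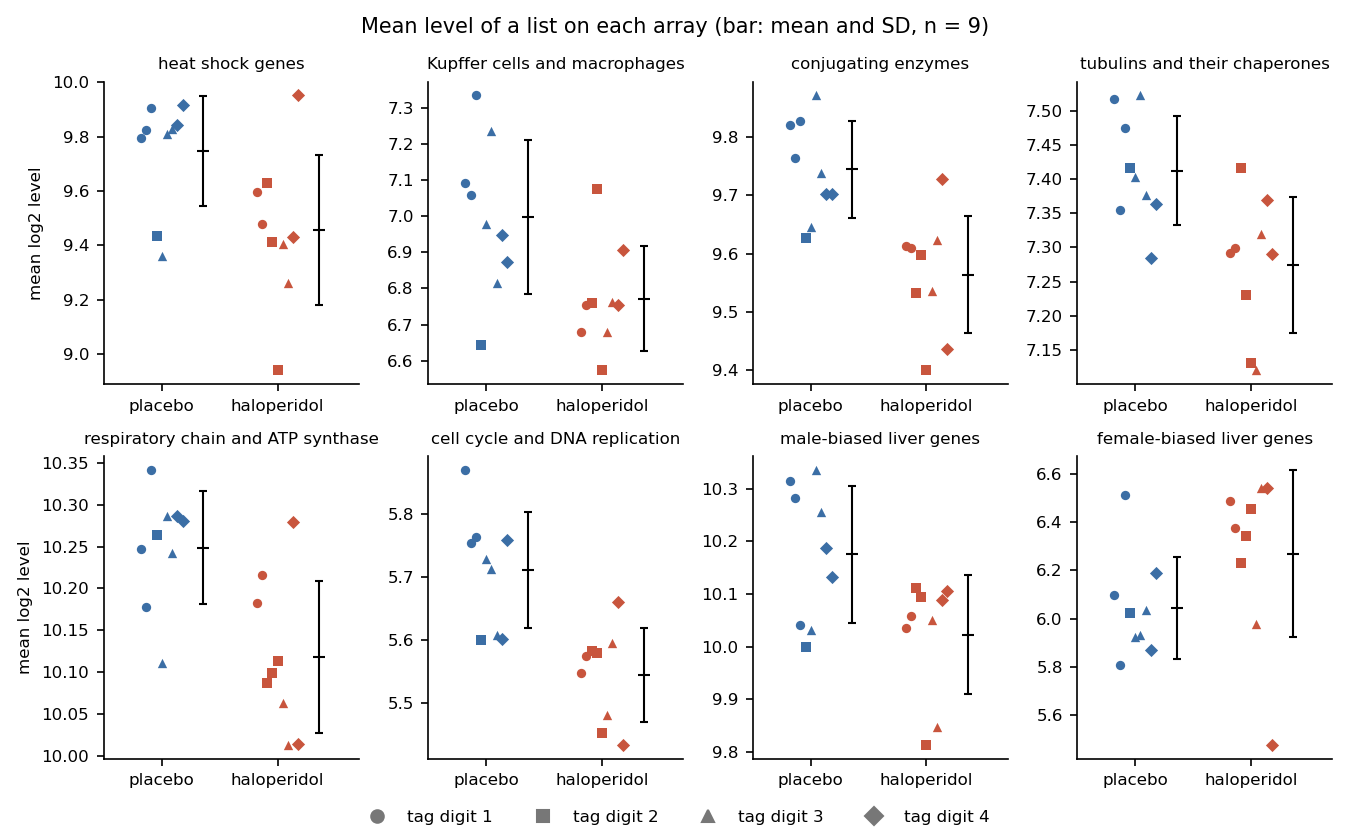
Mean log2 level (y axis) of 8 gene lists on each liver array, placebo in blue and haloperidol in red, with the mean and SD of 9 arrays as a bar; marker shape is the digit of the sample tag. The haloperidol mean is lower in the first 7 panels and higher in the female-biased panel, and the groups overlap in every panel.

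Glucocorticoid and fasting genes gave values of both signs, 3 nominally higher (Gadd45b, Mt1 and Angptl4) and 3 lower (Tat, Gadd45g and Ddit4) of 21 tested. The glucocorticoid-induced genes Fkbp5 and Tsc22d3 were at 0.00 and -0.02. Metallothionein Mt1 was at 7.98 to 9.31 (median 8.80) with placebo and 8.18 to 10.55 (median 9.11) with haloperidol, a difference of 0.64. The growth arrest gene Gadd45b was at 4.83 to 5.59 (median 5.03) with placebo and 4.73 to 6.61 (median 5.90) with haloperidol, with 8 of 9 above the placebo mean (0.67, SE 0.178, limma adjusted p = 0.362). The core clock gene Arntl varied widely between mice. It ran from 5.53 to 7.77 with placebo and from 4.85 to 8.19 with haloperidol, and the clock-controlled gene Noct (-0.63) was the 1 nominally lower gene of the 21 clock genes tested.

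Iron genes held 5 nominally lower and 0 higher of 30 tested, with a median of -0.04. Hamp, which encodes the iron hormone hepcidin, was at 11.30 to 12.46 (median 12.13) with placebo and 9.53 to 12.15 (median 11.60) with haloperidol, a difference of -0.63 (SE 0.259, limma adjusted p = 0.421). Haloperidol 4N, at 9.53, lay far below the other arrays. Its paralog Hamp2 was at -0.57, the transferrin receptor gene Tfrc at -0.49, the hepcidin regulator gene Hfe at -0.30 and the erythroid haem synthesis gene Alas2 at -0.28. Alas1, the hepatic form, was at -0.48 with an interval of -1.01 to 0.05. Hamp and Hamp2 are close in sequence, so their probes may share signal.

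Plasma proteins of the acute phase had a median of 0.01 over 32 tested, with 1 nominally higher (Itih3, 0.23) and 3 lower (Orm2, Hamp and the complement gene C9 at -0.19), or 5 lower without haloperidol 1B. Orm2, an acute phase glycoprotein gene, was at 7.97 to 9.55 with placebo and 7.36 to 9.21 with haloperidol, a difference of -0.65 (interval -1.17 to -0.12), while haptoglobin (Hp) was at 0.12. Antioxidant genes under NRF2 held 4 nominally lower and 0 higher of 25, the carboxylesterase gene Ces2g (-0.32), Cyp2a5 and the peroxiredoxin genes Prdx3 and Prdx2 (-0.22 and -0.16). The classical targets Nqo1, Hmox1 and Gclc were at -0.18, -0.09 and 0.15. Of 16 targets of p53, 1 was nominally lower, Zmat3 (-0.26), and Cdkn1a was at -0.43 with an interval of -0.95 to 0.10.

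Markers of the liver's cell types were read last. In whole tissue, fewer cells of a type and less RNA per cell cannot be told apart. Of 18 hepatocyte genes tested, 9 lay above and 9 below 0, and Tat was the 1 nominally lower gene. Of 26 Kupffer cell and macrophage genes 24 lay below 0 and 13 were nominally lower, with a median of -0.23.

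C1qa, which encodes a chain of complement C1q made by macrophages, was at 7.95 to 8.72 (median 8.35) with placebo and 7.74 to 8.28 (median 8.01) with haloperidol. Its partners C1qb and C1qc were at 8.30 to 9.07 and 7.57 to 8.40 with placebo and at 7.97 to 8.73 and 7.34 to 7.96 with haloperidol. The pan-macrophage gene Adgre1 was at 6.35 to 7.47 (median 7.11) and 6.22 to 7.15 (median 6.66). All 4 overlapped between groups, with 8 or 9 haloperidol values below the placebo mean. In that order the differences were -0.30, -0.32, -0.35 and -0.40, with limma adjusted p from 0.362 to 0.389.

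Among markers more specific to Kupffer cells, Marco (-0.48), Cd5l (-0.27) and Spic (-0.28) were nominally lower, and Clec4f (-0.18), Vsig4 (-0.35) and Timd4 (-0.24) did not reach nominal p. Placebo means were 5.33 for Marco, 8.41 for Cd5l and 4.43 for Spic, which lay close to the dim limit. Those of Clec4f, Vsig4 and Timd4 were 9.33, 8.25 and 6.38. The myeloid signalling adaptor genes Tyrobp and Fcer1g were at -0.35 and -0.24, the protease gene Ctss at -0.29 and the CSF1 receptor gene Csf1r at -0.23. The mean of the list ran from 6.64 to 7.33 over placebo arrays and from 6.57 to 7.07 over haloperidol arrays. By tag digit, the difference of list means was -0.44 for digit 1, 0.16 for digit 2, -0.29 for digit 3 and -0.08 for digit 4, where digit 2 holds a single placebo array and that array is the lowest placebo value. Without the 4 arrays of digit 2, 17 genes were nominally lower.

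Lists of other cell types held few nominal members. Sinusoidal endothelium had 2 nominally higher of 27, Egfl7 (0.47) and the scavenger receptor gene Stab2 (0.22), with a median of -0.03. Stellate cell and matrix genes had 1 higher of 26, Ngfr (0.17), with collagen Col1a1 at 0.02 and the retinol-storage gene Lrat at -0.16. In the bile duct list Pkhd1 was at 0.38 and Krt7 at -0.27, and the marker Krt19 at -0.09. Lymphocyte genes had 1 nominally lower of 12, Prf1 (-0.24), and neutrophil genes 0 of 9, with S100a9 at -0.29. Prf1, at a placebo mean of 4.23, lay close to the dim limit. The red cell list had 2 lower of 5, Alas2 and Car2 (-0.21), and the pancreas and adipose list 0 of 5, with Cela1 at -0.09 and a placebo mean of 5.33.

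Interferon and antigen presentation genes held 3 nominally lower and 0 higher of 34, Bst2 (-0.24), Psmb8 (-0.20) and Irgm1 (-0.24), with a median of -0.12. Isg15 and Cd74 were at -0.20 and -0.19, with intervals that include 0.

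Of 35 cell cycle genes tested 31 lay below 0 and 11 were nominally lower, with a median of -0.16. The ribonucleotide reductase genes Rrm2 and Rrm1 were at -0.50 and -0.39. Rrm2 ran from 5.53 to 6.55 (median 5.87) with placebo and from 4.98 to 5.88 (median 5.47) with haloperidol, and all haloperidol values lay below the placebo mean. Replication helicase genes were at -0.31 (Mcm2), -0.27 (Mcm6), -0.27 (Mcm4) and -0.18 (Mcm5), the clamp gene Pcna at -0.26, E2f1 at -0.27 and the mitotic kinase gene Aurkb at -0.41. Mki67 and Top2a, at placebo means of 4.37 and 4.35, were at -0.30 and -0.26 close to the dim limit, and Ccnd1 at -0.09. Without placebo 1L or without the arrays of tag digit 2, 7 genes were nominally lower. Macrophage markers had lower list means with haloperidol as well, as given above, and their part in this list was not tested.

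The 7 genes whose group means differed over 2-fold are given together, and those not named above (Mir122, Arrdc3, Rgs16, Myc and Moxd1) were chosen after their values were seen. The probe named Mir122 is for the gene of an abundant hepatocyte microRNA, whose arms the probe does not tell apart. Whether it reads the mature microRNA or a precursor is not known here. It was at 3.14 to 6.91 (median 4.68) with placebo and 5.20 to 8.09 (median 6.30) with haloperidol. The placebo mean of 4.83 was low, and the lowest placebo value lay below the dim limit of 3.92. All 9 haloperidol values were above the placebo mean, and 3 placebo arrays (3L, 4R and 2B) lay inside the haloperidol range. The difference was 1.62 (SE 0.428, interval 0.73 to 2.51, limma adjusted p = 0.349).

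Arrdc3, an arrestin-domain gene of receptor trafficking, was at 8.30 to 10.00 (median 8.88) with placebo and 9.08 to 10.88 (median 10.32) with haloperidol, a difference of 1.10 (SE 0.281, limma adjusted p = 0.334). Rgs16, which curbs G protein signalling, was at 4.96 to 8.62 (median 6.97) and 6.89 to 9.80 (median 8.17), a difference of 1.20 (SE 0.422). For both, 8 of 9 haloperidol values lay above the placebo mean, and the ranges overlapped.

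On the lower side, the growth gene Myc ran from 5.99 to 10.11 (median 7.96) with placebo and from 6.05 to 8.75 (median 6.23) with haloperidol. Most haloperidol arrays sat at the bottom of the range, and 3 (1B, 4L and 4N) lay above 8. Gadd45g ran from 5.56 to 9.72 (median 8.59) with placebo and from 5.25 to 9.31 (median 6.02) with haloperidol, and Moxd1, a monooxygenase gene, from 3.91 to 9.67 and from 3.11 to 9.02. The differences were -1.10 (SE 0.527), -1.36 (SE 0.626) and -1.58 (SE 0.860), with limma adjusted p of 0.470, 0.461 and 0.513. The ranges of these 3 genes overlapped widely. Abcd2, the remaining gene, is described with the female-biased genes.

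**Figure D5:**
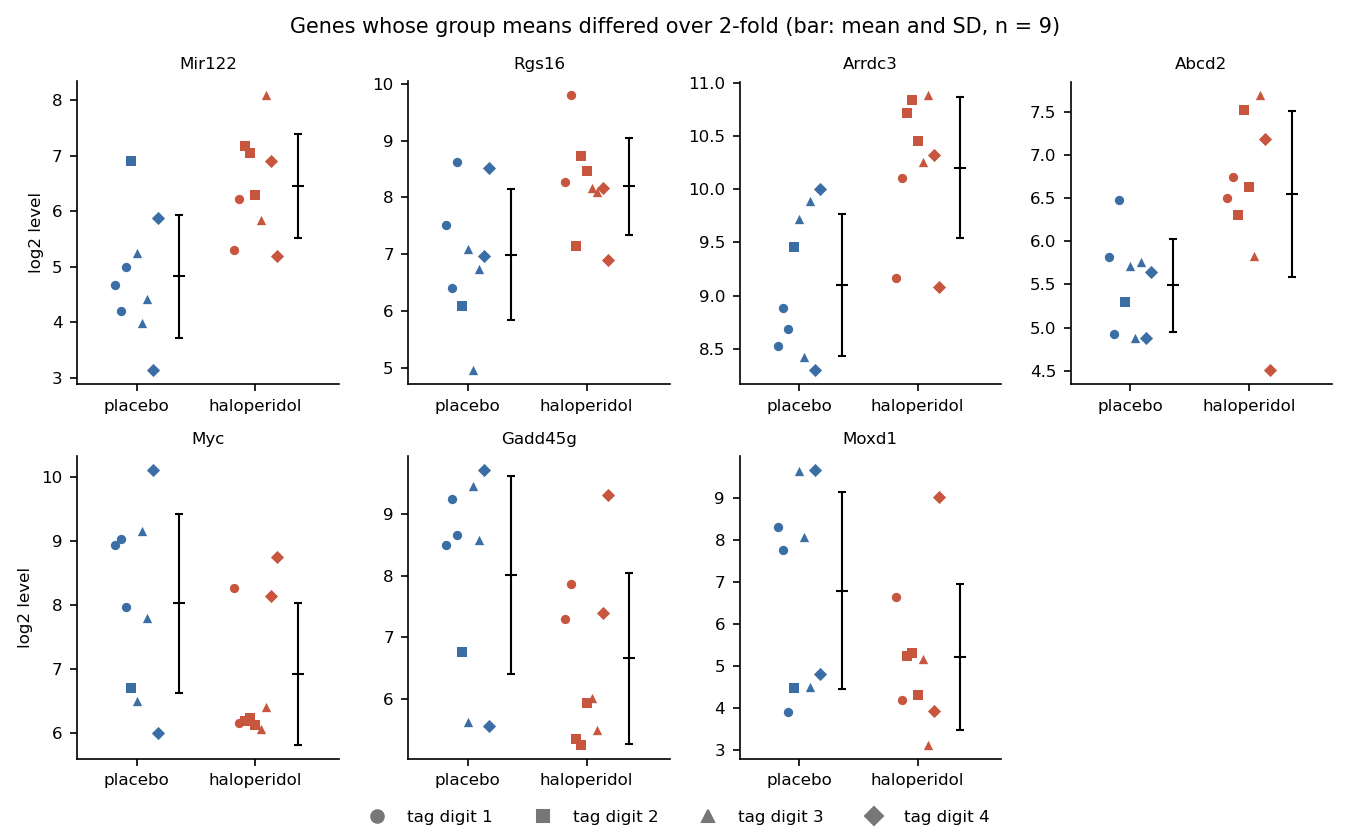
Log2 level (y axis) of the 7 genes with over 2-fold difference between group means on each liver array, placebo in blue and haloperidol in red, with the mean and SD of 9 arrays as a bar; marker shape is the digit of the sample tag. Mir122 has a difference of 1.62 with placebo 2B, at 6.91, among the haloperidol arrays, while Myc, Gadd45g and Moxd1 spread over 4 log2 units or more in placebo livers.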

How the data were processed

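Liver and brain RNA had been hybridised to arrays with 1 colour. The values are log2 expression values deposited by the authors, which the submitters' processing notes credit to Affymetrix Expression Console and RMA, with versions and array model not given in the sources used here. RMA subtracts background and equalises distributions between arrays, which can hide a shift of all genes. In the deposited liver values the median of all probes still ran from 4.70 (placebo 1T) to 5.05 (haloperidol 3R). The table held 35556 probes, of which 21218 had 1 gene symbol in GEO's platform annotation, 1881 several and 12457 none; 21185 matched RefSeq by Entrez ID and 0 symbols changed. The number of arrays limits the precision.

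Haloperidol was compared with placebo in limma 3.58.1 (R 4.3.3; lmFit and eBayes without trend) over the 18 liver arrays. The liver and brain effects were compared in 1 fit of 38 arrays. Genes named are the 10 higher and 10 lower of smallest p, and each list's anchor genes and up to 4 members of smallest p under 0.05; others are given as list members or as chosen after their values were seen. The members and lists were chosen with earlier results of these data known. No list was tested as a set. Promoter motifs were matched as letters. Alternatives covered the filter on dim genes, normalization, tag digit and letter as a block, variance model, weights, probe choice, all arrays in 1 fit, a Wilcoxon test and leaving out each array; a residual component as covariate, leaving out tag digit 2 and leaving out a brain array were chosen after seeing the data. The fit was tested on simulated data. The titles carry a tag of a digit and a letter, and the labels do not say what it marks.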

Additional observations from a re-analysis of the deposited data

Results flagged for a closer look

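For some named genes 1 array of a group of 9 lay farther from the next array than Dixon's 95% limit allows. Chance flags about 1 in 20 groups, and 210 genes in 2 groups were screened. In placebo 3L, Abcf2 was at 7.70 (next array 7.97), Cyp3a11 was at 11.67 (next array 12.03), Ugt2b36 was at 11.42 (next array 11.80) and Hspb1 was at 7.57 (next array 8.58). In placebo 3L, Col1a1 was at 8.01 (next array 6.95), Bst2 was at 9.19 (next array 9.42) and Irgm1 was at 7.78 (next array 8.11). In haloperidol 2T, Cyp2c70 was at 10.42 (next array 10.97), Ugt2b1 was at 10.80 (next array 11.26), Ugt2b36 was at 11.26 (next array 11.67) and Cyp4a12b was at 11.10 (next array 11.46). In haloperidol 2T, Cyp2b9 was at 7.68 (next array 5.28) and C9 was at 11.20 (next array 11.47). In haloperidol 4N, Cpt1a was at 10.13 (next array 10.56), Hamp was at 9.53 (next array 11.16), Hyou1 was at 10.88 (next array 10.20) and Lrat was at 6.36 (next array 7.21). In haloperidol 1R, Cyp3a11 was at 12.24 (next array 12.04) and E2f1 was at 5.43 (next array 5.82). In haloperidol 2N, C1qc was at 7.96 (next array 7.57) and Cd79b was at 5.90 (next array 5.41). In placebo 1T, Fgf21 was at 3.82 (next array 4.12) and Slc25a15 was at 11.03 (next array 10.81). In placebo 2B, Tmem97 was at 10.16 (next array 10.52) and Npc1 was at 9.54 (next array 10.02). In haloperidol 1B, Fkbp5 was at 8.51 (next array 7.51). In haloperidol 2L, Cdkn1a was at 5.70 (next array 4.82). In haloperidol 3R, Stab2 was at 9.27 (next array 8.78). In haloperidol 4L, Tkt was at 8.84 (next array 8.63). In placebo 3T, Cela1 was at 5.55 (next array 5.35). 

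The 10 higher and 10 lower liver genes of smallest p were compared with brain, and 19 could be. Their haloperidol effect differed between the tissues by limma's test (adjusted p under 0.05). Liver minus brain, the difference of effects was positive for Cep70 (0.87), Chd6 (0.84), Dcaf6 (0.28), Flcn (0.63), Gm3893 (0.91), Mapk1ip1 (0.69), Mtx3 (0.52), Slc23a2 (0.59), Zfp292 (0.44) and Zfp866 (0.57). It was negative for Abcf2 (-0.37), Bmp7 (-0.63), Gtf2e1 (-0.56), Mettl1 (-0.75), Nans (-0.72), Nudt5 (-0.47), Ttll1 (-0.62), Tuba1b (-0.52) and Tubb4b (-0.85). These genes had been chosen by their liver values, which were also part of this test.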

How the results depend on the processing

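With 12547 genes and 9 arrays a group, 0 genes passed in 29 of 32 alternative fits; 40 passed in the fit of all 38 arrays (21 higher, 19 lower) and 28 with the first residual component as covariate (6 higher, 22 lower), with 7 genes shared between these fits. The residual component was computed after the group means were removed, so it leaves each difference unchanged and takes away only spread. Its counts therefore add nothing about the differences. Leaving out single arrays gave 0 to 1 genes. At unadjusted p, leaving out single arrays gave 307 to 694 higher genes, the lowest without haloperidol 3R. Counts of higher genes that moved by over 1.5 times were 150 with the array median subtracted, 721 with a second quantile normalization, 823 with array weights, 726 in the fit of all arrays, 727 with the residual component and 256 without tag digit 2. Lower genes moved to 2226 with the array median subtracted and 1489 with the residual component. Genes whose liver and brain effects differ were 4345 in place of 2502 with array medians subtracted. For settings other than the residual component, the causes of these moves were not tested.

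With the tag digit as replicate block, 0 genes passed and 468 were higher and 857 lower at unadjusted p; with the letter as block these were 357 and 831. Residuals of arrays with the same digit and other treatment correlated at 0.185 on average over 19 pairs, against -0.0552 over 62 pairs with another digit, and 139 genes passed for the digit. With the sample tag shared by brain and liver as random block, 2364 genes differed between tissues. With the digit block no liver gene passed, as without it, but counts before adjustment moved: 20 named genes left and 7 joined those of unadjusted p under 0.05. Nominally lower counts went from 5 to 3 in the lysosome and amino acid lists, from 1 to 3 among p53 targets and from 6 to 9 among male-biased genes, and the 1 carbonyl reductase was lost. Over all alternatives, 34 of 210 named genes changed sign in 146 cases, none with a difference above 0.32, and 19 of 46 list medians changed sign.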
